A study of Homo sapiens with 6 samples.

Results

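The replication-dependent histone genes were followed in RNA-seq of HCT116, a human colorectal carcinoma line. The members were all genes of the count table that matched a protein-coding gene whose symbol begins with H2AC, H2BC, H3C or H4C and a number, or the linker histone genes H1-1 to H1-5. The rule found 62 of 60240 genes, namely 5 H1, 15 H2A, 17 H2B, 12 H3 and 13 H4 genes. Of these, 50 lay on chromosome 6 and 10 on chromosome 1, where the histone clusters are, while the H4C16 gene lay on chromosome 12 and the H2BC12L gene on chromosome 21. The study compared 3 wild-type (WT) libraries with 3 libraries from cells in which LSD1 was knocked out by CRISPR/Cas9 (LSD1 KO). LSD1, encoded by KDM1A, removes methyl groups from lysine 4 of histone H3. Knockout lines were grown from single clones, and whether the 3 LSD1 KO libraries came from separate clones or cultures is not given in the sources used here, so p-values measure the spread between these libraries only. The RNA was labelled as polyA RNA in all 6 libraries.

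Histone H1 binds the linker DNA between nucleosomes, and histones H2A, H2B, H3 and H4 form the core of the nucleosome. The clustered genes are transcribed in S phase, when new chromatin needs histones, under the coactivator NPAT. Their mRNAs usually have no poly(A) tail and end just after a short stem-loop that the protein SLBP binds, so selection for a poly(A) tail leaves most of them behind. The histone variants H3.3 and H2A.Z are encoded elsewhere and have ordinary polyadenylated mRNAs that are made throughout the cell cycle.

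The stem-loop was present at the annotated end of nearly every member. The pattern searched, on the transcript strand, was GG, any 2 bases, CTT, any base, T, any base, AG, any 2 bases and CC, and 60 of the 62 members held it within 20 bases of the end of the canonical transcript, with 1 to 11 bases after it. Among all 254413 transcripts of the GENCODE annotation for GRCh37, 70 (0.0275%) held the pattern in their last 40 bases, and they included transcripts of 10 genes that are not members. The exceptions were H2BC21, whose canonical transcript runs on for 1729 bases after the stem-loop, and H2BC12L, which lacks the pattern. The following ends are shown because these genes carried the most reads of their type or entered the comparisons below. Capitals mark the stem-loop, and the flanking bases are in lower case.
H1-2, chr6:26055972-26055987, minus strand: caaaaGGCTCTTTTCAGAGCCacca
H2AC25, chr1:228645070-228645085, minus strand: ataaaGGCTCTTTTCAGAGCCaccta
H2AC11, chr6:27101294-27101309, plus strand: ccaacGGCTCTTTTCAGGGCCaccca
H2BC12, chr6:27114145-27114160, minus strand: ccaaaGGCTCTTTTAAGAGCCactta
H3C6, chr6:26225824-26225839, plus strand: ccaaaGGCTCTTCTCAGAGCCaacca
H4C11, chr6:27792237-27792252, plus strand: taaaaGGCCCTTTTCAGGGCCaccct
H4C12, chr6:27798956-27798971, minus strand: caaaaGGCCCTTTTTAGGGCCccca
H4C14, chr1:149804596-149804611, plus strand: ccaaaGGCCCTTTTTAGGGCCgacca

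These coordinates are on GRCh37 and cover the capital letters, which lie near the end of the canonical transcript of each gene. H2AC25, H3C6 and H4C14 also have annotated transcripts that end elsewhere. The stem differed by histone type. All 13 H4 genes carried a stem that opens with GGCCC and closes with GGGCC, whereas 46 of the 48 other members with a stem-loop had GGCTC and GAGCC. The 2 others were H2AC11, whose stem closes with GGGCC, and H2AC15, whose stem opens with GGTTC. The single form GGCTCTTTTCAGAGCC was shared by 36 members.

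Promoter motifs also differed by histone type. RefSeq gave a promoter window (250 bases before to 50 after the start, GRCh38.p14) for 56 of the 62 members. The octamer ATTTGCAT, searched on both strands like the other motifs, was found in 11 of 14 H2A and 12 of 16 H2B windows, in 1 of 10 H3 windows and in none of the 5 H1 and 11 H4 windows, against 1.77% of all 35116 promoters. The H1 box AAACACA was found in 5 of 5 H1 windows and in 5.64% of all promoters. The CCAAT motif was in each H1, H2A, H2B and H3 window but in 2 of 11 H4 windows, against 34.6% of all promoters, and TATAAA was in 37 of 56 member windows, against 11.5%. The 250 bases before the start are shown for the H1 and the H2B gene with the most reads, with the motif matches in capitals.
H1-2, chr6:26056471-26056720, minus strand: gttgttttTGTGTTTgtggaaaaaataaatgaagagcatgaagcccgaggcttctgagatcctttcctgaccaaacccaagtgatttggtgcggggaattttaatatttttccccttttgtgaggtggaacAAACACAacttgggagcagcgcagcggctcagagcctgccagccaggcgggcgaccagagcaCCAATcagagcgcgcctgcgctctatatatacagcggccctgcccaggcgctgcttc
H2BC12, chr6:27146859-27147108, minus strand: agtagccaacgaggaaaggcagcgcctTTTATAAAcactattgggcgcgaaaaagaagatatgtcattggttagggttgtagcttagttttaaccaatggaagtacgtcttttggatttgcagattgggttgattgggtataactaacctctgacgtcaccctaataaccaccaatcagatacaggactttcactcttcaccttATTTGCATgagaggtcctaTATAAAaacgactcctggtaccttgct

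In the H1-2 sequence the capitals mark the H1 box, on the reverse strand and then on the forward strand at -119, and the CCAAT motif at -57. In the H2BC12 sequence they mark the octamer at -46 and the TATAAA matches, the nearest at -27. The CCAAT matches of H2BC12 are left in lower case. Far upstream in that window lies a reverse-strand TATAAA, on the side of H2AC12, which is transcribed away from H2BC12. A motif match describes the letters only, and a window of a divergent gene pair counts for both genes.

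Few reads came from these genes. The totals of the libraries ranged from 25379279 to 29186963 expected counts, of which the 62 members together took 773, 1026 and 887 in WT replicates 1 to 3 and 855, 1185 and 600 in LSD1 KO replicates 1 to 3. As a share of the library total this was between 23.0 and 41.4 CPM, the unit of counts scaled to library size used below with TMM factors. In all libraries together the members had 5326 counts. Of the 62 genes, 46 had any count, 28 had at least 10 counts in some library, and 16 were at 0 in all libraries, which allows a level of up to 0.0182 CPM (3 of 164805835 counts, counting error only). The genes at 0 included 3 of the 5 linker histone genes, H1-1, H1-3 and H1-5.

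**Figure D1:**
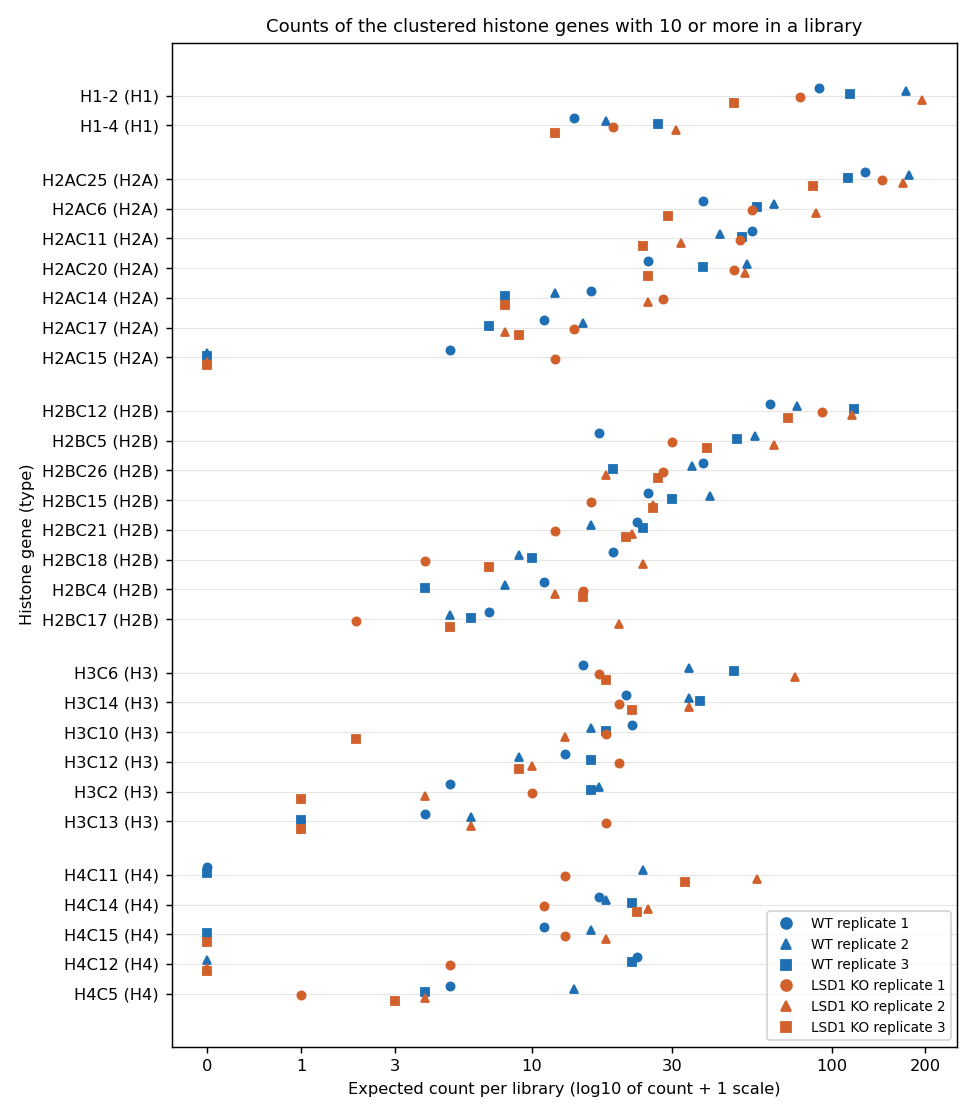
Expected counts (x axis, log10 of count + 1) of the 28 members that reached 10 counts in some library, grouped by histone type, with 1 point per library (colour for the group, shape for the replicate number). H1-2, H2AC25 and H2BC12 had the highest counts, and H4C11, H4C12, H4C15 and H2AC15 were at 0 in some libraries and above 10 in others.

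The reads were unevenly spread. The 3 genes with the most counts held 38.7% of the member counts and the top 10 held 69.2%. The H2A genes took 35.8%, the H2B genes 27.6%, the H1 genes 15.4%, the H3 genes 12.4% and the H4 genes 8.73%. Levels between genes were compared as CPM per kilobase of canonical transcript, averaged over the 6 libraries.

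Among linker histones, H1-2 had 91, 173 and 114 counts in WT and 79, 195 and 48 in LSD1 KO, for replicates 1 to 3. It was the highest H1 gene, with 5.83 CPM per kilobase, and H1-4 followed at 0.927. In both groups replicate 2 was the highest H1-2 library.

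Among the H2A genes, which encode the partner of H2B in the nucleosome, H2AC25 led with 9.81 CPM per kilobase, the highest level of any member. It had 128, 178 and 113 counts in WT and 145, 170 and 87 in LSD1 KO. H2AC6 followed at 3.89 and H2AC11 at 3.13 CPM per kilobase, and in WT these 2 levels did not differ beyond their spread (3.71 ± 0.989 and 3.64 ± 0.493, SD, n = 3).

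Among the H2B genes, H2BC12 reached 6.57 CPM per kilobase, from 63, 77 and 118 counts in WT and 93, 116 and 72 in LSD1 KO. H2BC5 (3.20 CPM per kilobase) and H2BC26 (2.22) came next, with WT levels of 3.004 ± 1.55 and 2.47 ± 0.957 (SD, n = 3) that overlapped. H2BC12 shares 61.9% of its 31-base sequences with H2BC12L, which was at 0 throughout, so the split between these 2 genes is uncertain.

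The H3 and H4 genes, which form the tetramer at the centre of the nucleosome, were lower. H3C6 led the H3 genes at 2.60 CPM per kilobase, followed by H3C14 (1.95) and H3C10 (1.11). H3C6 had 15, 34 and 48 counts in WT and 17, 76 and 18 in LSD1 KO. Of the 31-base sequences of H3C14, 99.2% also occur in some other gene, and 37.8% in other members. The level and rank of H3C14 are therefore uncertain. Of the H4 genes, H4C11 stood at 2.02, H4C14 at 1.78 and H4C15 at 0.903 CPM per kilobase. The order within H4 is uncertain, since each of these genes shares most or all of its sequence with another member, as described below.

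Histone variants encoded elsewhere were measured at a far higher summed level in the same libraries. H2AZ1, which encodes H2A.Z, stood at 564 CPM per kilobase, and the H3.3 genes H3-3A and H3-3B at 294 and 299. The summed CPM of the 23 variant genes matched in the table was between 87.7 and 112 times that of the 62 clustered genes in each library. Whether each of the 23 has a polyadenylated mRNA was not checked. Of 33 other RNAs without a poly(A) tail that were listed, 24 were matched, among them RN7SK and RMRP, and they summed to between 3.21 and 5.52 CPM per library. The other 9, among them RN7SL1, RPPH1 and RNU2-1, were not matched by symbol and were not analysed here, so the sum does not stand for the class.

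Some members have annotated transcripts that end beyond or before the stem-loop. A transcript without a stem-loop at its end is annotated for 19 members, one of which, H2BC12L, lacks the stem-loop altogether. For 16 of the 19 such a transcript has AATAAA or ATTAAA in its last 60 bases. These 19 genes had a median total of 77.0 counts and 2 were at 0, whereas the other 43 had a median of 12.0 and 14 were at 0. The split of reads was nevertheless nearly even, with 48.9% of the member counts in the 19 genes and 51.1% in the 43. H1-2 and H2BC12, with 700 and 539 counts, have no annotated transcript that ends elsewhere. The gene counts do not tell which end a read came from.

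Divergent neighbours were unequal. There were 10 pairs of an H2A and an H2B gene whose starts lie 194 to 251 bases apart on opposite strands, and 9 of them had counts in both genes. The gene with more reads had between 1.42 and 23.4 times the counts of its partner. H2BC12 had 539 counts and H2AC12 had 23, H2AC25 had 821 and H2BC26 had 165, and H2AC11 had 255 and H2BC11 had 22. The H2A gene had more counts in 7 of the 9 pairs, and H2BC15, with 163 counts against 17 for H2AC15, was the other H2B gene that led. H2AC12, H2BC11, H2AC15 and H2BC15 fall outside the rule for named genes and were picked with their values in view.

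The knockout was checked in KDM1A itself. Its level was 231, 224 and 213 CPM in WT and 29.9, 27.6 and 27.7 CPM in LSD1 KO, a log2 fold change of -2.97 ± 0.154 (SE) with an adjusted p of 0.000451 in edgeR. The epithelial keratins KRT8, KRT18 and KRT19 were above 340 CPM in each library. Of the other intestinal markers, CDX2 was at 12.1 to 20.9 CPM, CDX1 was at 0 and VIL1, LGALS4 and CEACAM5 stayed under 1 CPM. Of the 15 markers of blood cells, fibroblasts and endothelium that were matched, HBA1 (1.18 to 3.04 CPM) and COL1A1 (20.4 to 33.9 CPM) exceeded 1 CPM in all libraries, and VWF (0.303 to 1.25 CPM) did so in 1 library. The others, among them KDR at 0.151 to 0.681 CPM, stayed under 1 CPM.

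The first comparison asked whether the loss of LSD1 changed the level of the histone genes. The summed level of the 62 members was 32.4 ± 5.51 CPM in WT and 32.3 ± 10.6 CPM in LSD1 KO (SD, n = 3 each), a log2 ratio of -0.01. WT replicates 1 to 3 stood at 29.2, 38.8 and 29.4 CPM, and LSD1 KO replicates 1 to 3 at 30.5, 43.6 and 22.7 CPM. The highest and the lowest library were both LSD1 KO, so the WT libraries lay inside their range. Within same-numbered libraries, the log2 ratio of LSD1 KO to WT was 0.07, 0.17 and -0.37. In bulk RNA, the share of cells in S phase and the amount of histone mRNA per cell cannot be told apart.

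**Figure D2:**
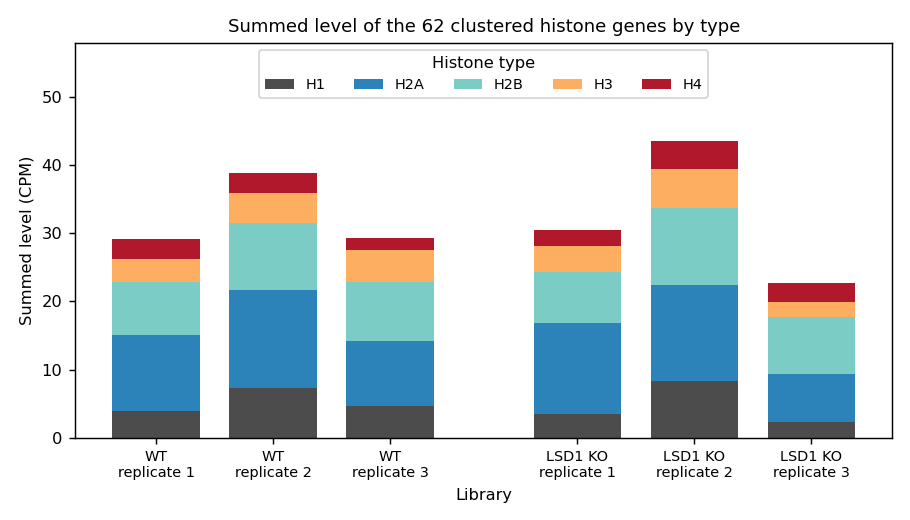
Summed level of the 62 members (y axis, CPM) in each of the 6 libraries, stacked by histone type, with no error bars because each bar is 1 library. Replicate 2 was the highest library in WT (38.8 CPM) and in LSD1 KO (43.6 CPM), and the groups overlapped.

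The histone types likewise overlapped between groups. The H2A sum was 11.7 ± 2.56 CPM in WT and 11.5 ± 3.88 in LSD1 KO, and the H2B sum was 8.80 ± 0.974 and 9.06 ± 1.99 CPM. The H1 sum was 5.28 ± 1.72 CPM in WT and 4.70 ± 3.20 in LSD1 KO, the H3 sum 4.15 ± 0.692 and 3.83 ± 1.74, and the H4 sum 2.52 ± 0.607 and 3.16 ± 0.939 (SD, n = 3 each). In each type the SD was larger among the LSD1 KO libraries than among the WT libraries, a difference that was not tested. The members of the chromosome 6 clusters summed to 21.1 ± 3.43 CPM in WT and 21.3 ± 7.92 in LSD1 KO, and those on chromosome 1 to 11.2 ± 2.60 and 10.8 ± 2.74 CPM. The 19 genes with an annotated end elsewhere summed to 15.9 ± 2.97 and 15.8 ± 4.71 CPM, and the other 43 to 16.5 ± 2.63 and 16.5 ± 5.97 CPM.

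Gene by gene, 21 members had enough counts for the test across 17672 genes (2 H1, 6 H2A, 6 H2B, 4 H3 and 3 H4 genes), and 41 did not. At an adjusted p under 0.1 in edgeR, 0 of the 21 were called, beside 1 gene among all tested (0.00566%), which was KDM1A. At an unadjusted p under 0.05 there were 0 of 21 members, against 3.12% of all genes. With the replicate number as a block, 0 of 21 were called against 1.6% of all genes, and 1 had an unadjusted p under 0.05 against 13.4%. DESeq2's Wald test called 0 of the 40 members to which it gave an adjusted p, against 0.376% of all genes, and 0 of 46 had an unadjusted p under 0.05, against 1.96%. The median log2 fold change was 0.09 over the 21 members, 12 of them positive and 9 negative, and 0.00 over all genes tested.

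**Figure D3:**
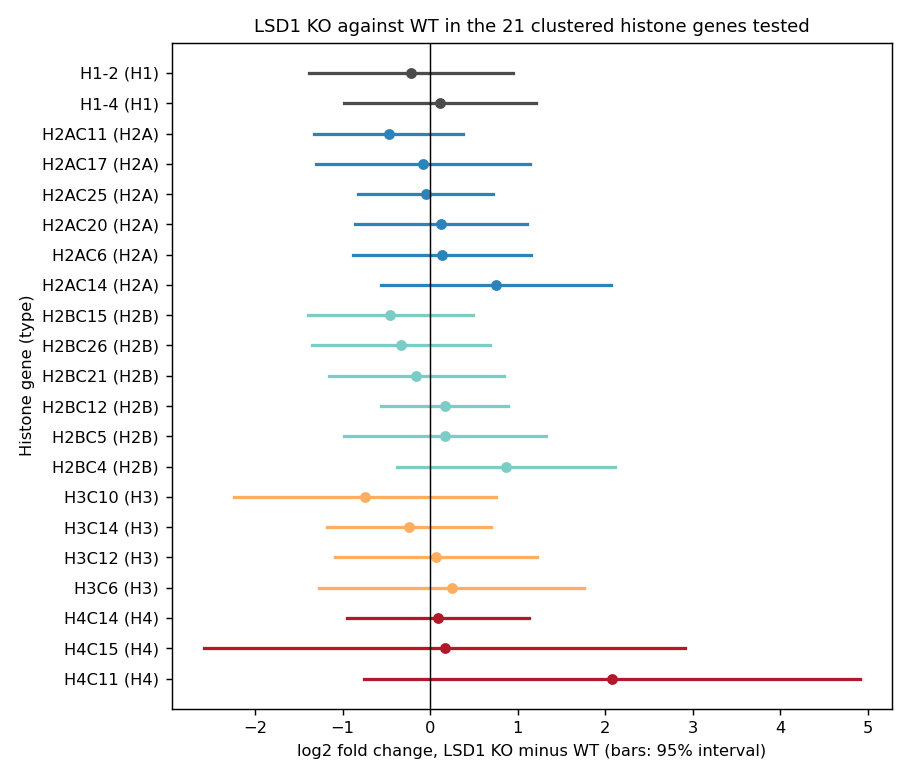
log2 fold change of LSD1 KO over WT (x axis) for the 21 members tested, coloured by histone type, with the edgeR estimate as a point and its 95% interval as a bar. The fit had no replicate block. Each interval includes 0, and the widest belong to H4C11 and H4C15.

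The intervals were wide. Without the replicate block, the half-width of the 95% interval was between 0.73 and 2.83 on the log2 scale over the 21 members. Its median was 1.10, against 0.59 over all genes tested, and 0.99 for the members with the block. For 2 of the 21 members, H2AC25 and H2BC12, the whole interval lay between -1 and 1, against 64.0% of all genes. With the replicate block there were 6 such members, against 75.2% of all genes. These 6 were H2AC25, H2BC12, H1-2, H2AC6, H2BC5 and H2AC20, the last outside the rule for named genes. With the block, H1-2, with 700 counts, had an interval of -0.96 to 0.23 and an SE of 0.260, against 0.512 without it. Without the block, H2AC25 had a log2 fold change of -0.05 with an interval of -0.82 to 0.72, and H2BC12 of 0.16 with an interval of -0.56 to 0.89. For the other members in the fit without the block, a 2-fold change in at least 1 direction lay within the interval.

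The 5 members with the smallest p were H4C11, H2BC4, H2AC14, H2AC11 and H3C10. H2BC4 had 11, 8 and 4 counts in WT and 15, 12 and 15 in LSD1 KO. It was the only tested member whose LSD1 KO libraries all lay above the WT libraries in CPM, which was the case for 4.2% of all genes tested, and none lay below without overlap, against 3.55%. Its log2 fold change was 0.86 ± 0.545 (SE, unadjusted p = 0.149 in edgeR), and its annotated exons overlap those of HFE on the opposite strand, from which reads cannot be told apart if strand was not used in counting.

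H2AC14 had 16, 12 and 8 counts in WT and 28, 25 and 8 in LSD1 KO, with a log2 fold change of 0.75 ± 0.578 (SE). Replicate 3 had the same count in both groups. H2AC14 shares 67.7% of its 31-base sequences with H2AC13, and the 2 genes together had 25, 18 and 15 counts in WT and 36, 26 and 9 in LSD1 KO.

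H2AC11 had 55, 43 and 51 counts in WT and 50, 32 and 24 in LSD1 KO, a log2 fold change of -0.47 ± 0.372 (SE). H3C10 had 22, 16 and 18 counts in WT and 18, 13 and 2 in LSD1 KO, a log2 fold change of -0.75 ± 0.656 (SE). In both genes LSD1 KO replicate 3, which also had the lowest summed level of all members, was the lowest library.

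H4C11 had 0, 24 and 0 counts in WT and 13, 57 and 33 in LSD1 KO. Its log2 fold change was 2.08 ± 1.24 (SE, unadjusted p = 0.131 in edgeR), and 2.76 ± 0.872 with the replicate block (edgeR, adjusted p = 0.224). H4C12, named after its values were seen, had 23, 0 and 22 counts in WT and 5, 0 and 0 in LSD1 KO, so that reads were assigned to 1 of the 2 genes in 5 of the 6 libraries. The canonical transcripts share 92.5% of the 31-base sequences of H4C11 and 93.0% of those of H4C12.

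Summed over both genes, the counts were 23, 24 and 22 in WT and 18, 57 and 33 in LSD1 KO. The log2 fold change of the sum was 0.67 (edgeR, unadjusted p = 0.199), with LSD1 KO replicate 1 below all WT libraries in counts.

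**Figure D4:**
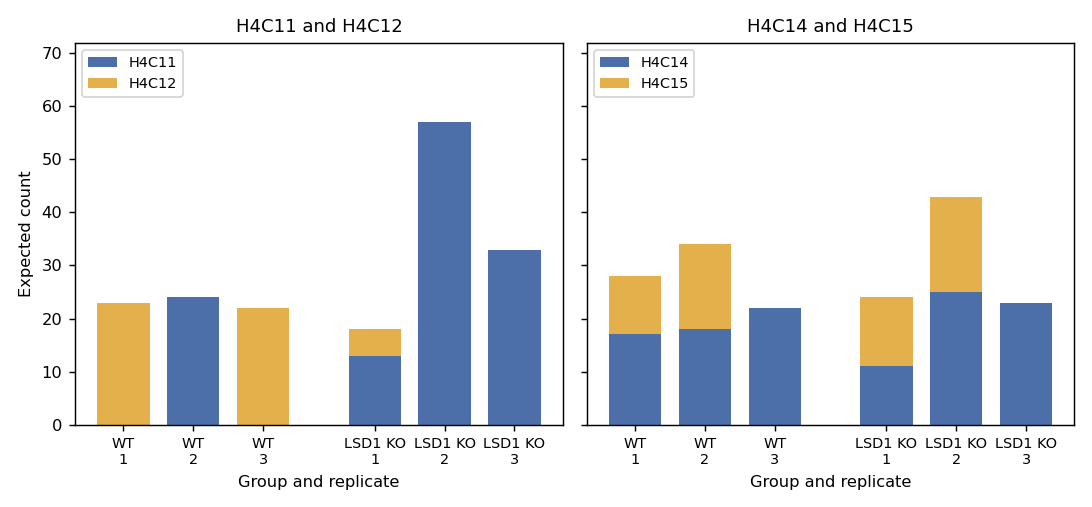
Expected counts (y axis) of the near-identical H4 genes in each library, with H4C11 and H4C12 stacked on the left and H4C14 and H4C15 stacked on the right. H4C11 and H4C12 were rarely counted in the same library, while their sum was 22 to 24 in WT and 18 to 57 in LSD1 KO.

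The second comparison was across replicate numbers, since libraries with the same number deviated together in both groups. Over all genes, 7273 of 17672 (41.2%) differed between the replicate numbers at an adjusted p under 0.1 in edgeR. Of the 21 members 5 were called (23.8%), namely H4C15, H1-2, H2AC25, H2BC5 and H4C11. DESeq2's likelihood ratio test called 1, H1-2, of the 12 members to which it gave an adjusted p, against 39.0% of all genes. Among the 5696 genes tested with a mean level in the range of the tested members, 19.9% were called. Replicate 2 had the highest fitted level in 13 of the 21 members, against 38.8% of all genes, and the highest CPM in WT and in LSD1 KO separately in 8 of 21 (38.1%), against 25.1% of all genes.

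H1-2 stood at 3.43, 6.54 and 3.77 CPM in WT and 2.82, 7.18 and 1.81 CPM in LSD1 KO. Replicate 2 was higher than replicate 1 by a log2 value of 1.16 ± 0.314 (SE) and higher than replicate 3 by 1.35 ± 0.318, with an adjusted p of 0.0230 in edgeR. Both replicate 2 libraries lay above the other 4 libraries.

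H2AC25 stood at 4.83, 6.73 and 3.74 CPM in WT and 5.18, 6.26 and 3.29 CPM in LSD1 KO. It was lowest in replicate 3 of both groups, 0.88 ± 0.228 (log2, SE) below replicate 2, with an adjusted p of 0.0483. H2BC5 was lowest in replicate 1, with 0.641 and 1.07 CPM in WT and LSD1 KO, against 2.12 and 2.39 CPM in replicate 2 and 1.62 and 1.47 CPM in replicate 3 (adjusted p = 0.0613 in edgeR). The order of the replicate numbers was thus not the same in the 3 genes, although replicate 2 was the highest in each.

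**Figure D5:**
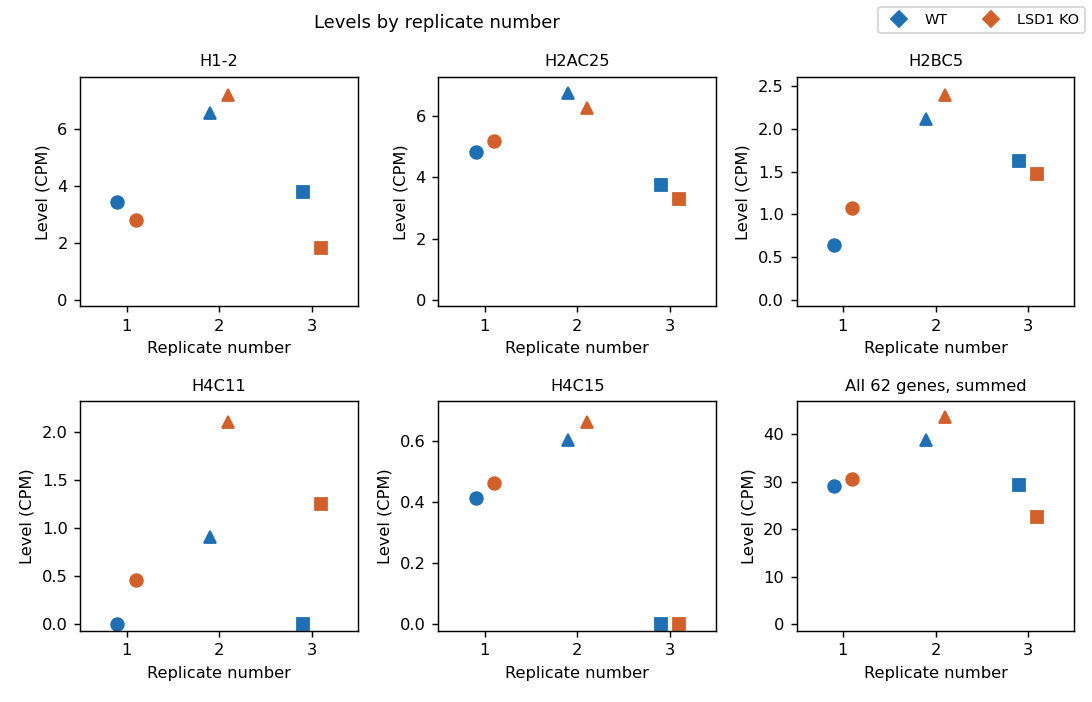
Level (y axis, CPM) by replicate number (x axis) of the 5 members called between replicate numbers and of all 62 members summed, with 1 point per library and colour for the group. H1-2, H2AC25 and H2BC5 were highest in replicate 2 of both groups, as was the sum, and H4C15 was at 0 in both replicate 3 libraries.

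The calls of the 2 H4 genes did not hold when near-identical genes were summed. H4C15 had 11, 16 and 0 counts in WT and 13, 18 and 0 in LSD1 KO, and H4C14 had 17, 18 and 22 counts in WT and 11, 25 and 23 in LSD1 KO. Their canonical transcripts are identical, and the 2 genes together had 28, 34 and 22 counts in WT and 24, 43 and 23 in LSD1 KO. With each set of near-identical members summed, the adjusted p between replicate numbers was 0.292 for H4C14 with H4C15 and 0.371 for H4C11 with H4C12 in edgeR, where the single genes H4C15 and H4C11 had 0.0164 and 0.0855. H1-2, H2AC25 and H2BC5 were then the only members called, 3 of 20, where 41.2% of all genes were called before summing.

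The genes that make and use histone mRNA were examined as lists. These lists and those of the following paragraphs were chosen with earlier results of these data known. SLBP, which binds the stem-loop, stood at 160, 195 and 147 CPM in WT and 163, 136 and 116 CPM in LSD1 KO, with a log2 fold change of -0.28 ± 0.190 (SE, adjusted p = 0.999 in edgeR). NPAT, the coactivator of histone transcription, stood at 45.9, 25.6 and 34.9 CPM in WT and 41.6, 21.7 and 31.1 CPM in LSD1 KO, a log2 fold change of -0.17 ± 0.285. NPAT differed between replicate numbers in edgeR (adjusted p = 0.00475), as did 41.2% of all genes. It was lowest in replicate 2 of both groups, where the summed level of the histone genes was highest. In LSD1 KO replicate 3, which had the lowest histone sum, NPAT lay between its levels in LSD1 KO replicates 1 and 2. A link between NPAT and the histone sum was not tested.

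Of 29 genes tested for histone mRNA transcription and 3′ processing, none was called between LSD1 KO and WT without the block and 1 at an unadjusted p under 0.05. With the block 1 was lower in LSD1 KO, CCNE2, the cyclin that activates CDK2 at the start of S phase. CCNE2 stood at 27.0, 16.9 and 16.05 CPM in WT and 17.0, 5.85 and 9.07 CPM in LSD1 KO, a log2 fold change of -0.99 ± 0.177 (SE, adjusted p = 0.0533 with the block in edgeR). Between replicate numbers, 12 of the 29 (41.4%) were called, near the 41.2% of all genes tested. The median of the 29 log2 fold changes between LSD1 KO and WT was -0.08. The sign of this median rested on 1 library, since it was 0.02 without WT replicate 1, and it was -0.16 without WT replicate 3, -0.19 without LSD1 KO replicate 1 and -0.04 without LSD1 KO replicate 2. The 20 genes of histone mRNA translation and decay had a median of 0.06 and the 25 histone chaperone genes of -0.13, with none called with or without the block. The first median was -0.02 without WT replicate 2 and -0.01 without LSD1 KO replicate 1, and 0.02 and 0.01 without WT or LSD1 KO replicate 3. With 1 library left out the second was between -0.23 (LSD1 KO replicate 1) and -0.08 (LSD1 KO replicate 3). At an unadjusted p under 0.05 both lists had 0 genes without the block and 4 genes with it. Over all genes tested, the share at that threshold in edgeR was 3.12% without the block and 13.4% with it. Between replicate numbers, 13 of the 20 translation and decay genes (65%) and 13 of the 25 chaperone genes (52%) were called.

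The 41 S phase genes, such as those for the replicative helicase and DNA polymerases, had a negative log2 fold change throughout, from -0.91 to -0.01 with a median of -0.23, where 8856 of the 17672 genes tested were positive. Other size factors left all 41 negative, and leaving out 1 library left 34 to 41 negative. The median was -0.43 without LSD1 KO replicate 1 and -0.14 without LSD1 KO replicate 2. Without the block 0 were called and 2 had an unadjusted p under 0.05 in edgeR, against 3.12% of all genes. With the block 1 was called, CCNE2, and 20 had an unadjusted p under 0.05 in edgeR, against 13.4% of all genes. Their summed level was 6596, 6245 and 5299 CPM in WT and 6591, 4523 and 4422 CPM in LSD1 KO. LSD1 KO replicate 2 had a lower S phase sum than all WT libraries and the highest histone sum of all 6. LSD1 KO replicate 3 had the lowest S phase sum and also the lowest histone sum, 22.7 CPM. Whether the S phase and histone sums go together was not tested. The list shares SLBP, CCNE1, CCNE2 and E2F1 with the list of histone mRNA transcription.

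The 30 genes of G2 and mitosis had a median log2 fold change of 0.02 with none called in either fit, and 0 and 1 genes at an unadjusted p under 0.05 without and with the block. With 1 library left out that median was between -0.10 (LSD1 KO replicate 1) and 0.15 (WT replicate 1). For the replicate number, 22 of the 30 genes (73.3%) were called in edgeR. Of the 11 tested genes among the replication-independent and variant histones, none was called in either fit. At an unadjusted p under 0.05 there were 0 and 3 without and with the block, against 3.12% and 13.4% of all genes. The median log2 fold change of the 11 was -0.08. This median was -0.26 without LSD1 KO replicate 2, -0.21 without WT replicate 1 and -0.18 without WT replicate 3, and it was positive without WT replicate 2 (0.07), LSD1 KO replicate 1 (0.04) or LSD1 KO replicate 3 (0.06), so it gives no direction. Between replicate numbers, 8 of these 11 variant genes were called, all 8 with their highest fitted level in replicate 2. Over all genes tested, 41.2% were called, and 3332 of the 7273 called had their highest fitted level in replicate 2. The summed level of the variant list was 2882, 4003 and 2985 CPM in WT and 2879, 3824 and 2539 CPM in LSD1 KO, so replicate 2 was the highest library in each group, as it was for the clustered genes. Whether the replicate numbers stand for days, cultures or sequencing runs is not given in the sources used here, and their part in these levels was not tested.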

How the data were processed

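RNA-seq was performed on 3 WT and 3 LSD1 KO libraries of HCT116. The authors trimmed reads with Trimmomatic 0.39, quantified them with Salmon 1.4.0 on GENCODE transcripts (GRCh38) and deposited expected counts per gene in whole numbers. Salmon divides reads among similar transcripts, so the split of counts between near-identical histone genes is uncertain. How single reads were assigned was not examined. Strand use in counting is not given in the sources used here.

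Symbols were found for 58395 of 60240 genes. Counts were compared with edgeR 4.0.16 in R 4.3.3 (TMM, filterByExpr by group, quasi-likelihood test, Benjamini-Hochberg adjustment over all genes tested, adjusted p under 0.1). The replicate number was tested in a model with the group. Library totals were 25379279 to 29186963, so 3 counts were 0.103 to 0.118 CPM. Intervals for counts of 0 cover counting error only. The scripts were tested on simulated data, with changes placed only in well-counted genes and no reads shared between genes. That test does not show how well changes are found in members with few counts. Alternatives were other size factors and filters, DESeq2 1.42.0, leaving out libraries, and the block.

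Replicate numbers paired the libraries in the data: deviations from group means correlated at 0.553, 0.553 and 0.404 over 17672 genes for equal numbers, and at -0.516 to 0.0454 otherwise. The deviations of a gene within a group sum to 0, so positive values for equal numbers force negative ones among the others. The block left the common biological coefficient of variation at 0.133, against 0.279 without it.

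The members and gene lists were chosen with earlier results of these data known. Named genes were the 3 members of each type with the highest level, the 5 with the smallest p in each comparison, SLBP, NPAT, list genes called, and KDM1A. Where a symbol matched 2 identifiers, the one with more counts was used. Lengths, stem-loops and shared sequences came from GRCh37 with GENCODE v44lift37, a different release from that of the authors.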

Additional observations from a re-analysis of the deposited data

How the results depend on the processing

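Between LSD1 KO and WT, 0 members were called in 16 of 17 alternatives. The exception was the replicate block without both replicate 2 libraries, an alternative added after seeing the data, with 2 members called, H4C11 and H4C12, which share most of their sequence and moved in opposite directions. The replicate block alone paired the libraries and left 0 members called while 282 genes were called in all, and its median log2 fold change of the members was 0.03. The median was -0.11 without both replicate 2 libraries, with the block also -0.11, and -0.32 to 0.16 when 1 library was left out, the lowest without LSD1 KO replicate 2. The log2 ratio of the summed level was -0.29 to 0.19 over the libraries left out, -0.14 without both replicate 2 libraries, and -0.05 as the mean of the same-numbered pairs. It moved by less than the spread between pairs in each.

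Between replicate numbers, 5 members were called, but 3 at an adjusted p under 0.05, 9 with every gene above 0 counts tested, 1 (H1-2) by DESeq2's likelihood ratio test, 3 with near-identical members summed, 1 (H4C15) without both replicate 2 libraries, and 3 to 7 with 1 library left out, the lowest without WT replicate 1. The causes of the other changes were not tested, apart from the number of members or libraries that the alternatives take in. All 14 members named by level were also the top 3 of their type per kilobase of coding length. Of 293 values recomputed for single genes, 292 kept their side of the threshold and 31 changed sign. Depth limits these results, since 41 of 62 members were not tested.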
